A study of Mus musculus with 15 samples.

Results

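Integrins and laminins, the adhesion receptors of cells and the basement membrane chains that many of them bind, were followed in the whole mouse aorta across RAGE genotype and diabetes. The set was defined by gene symbol and by no measured difference, though it was chosen with earlier results of these data known. It held every gene named Itga or Itgb plus digits or a letter (an integrin alpha or beta subunit, Itga2b and Itgb2l included) or Lama, Lamb or Lamc plus a digit (a laminin alpha, beta or gamma chain) that had a probe set annotated to 1 gene. These were 35 of the 18193 genes measured, 25 integrins and 10 laminins. They had 76 probe sets between them, and for each gene the one with the highest mean over all 15 arrays was used, a choice among several for 21 genes. Itga11 and Itgad were not analysed here.

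RNA came from the aorta of male C57BL/6 mice of 9 weeks of age, taken from root to bifurcation, with 1 Affymetrix array per mouse. Every mouse in every group lacked ApoE, the lipid carrier apolipoprotein E, so that there was no wild-type reference. The ApoE/RAGE null mice were deleted in addition for Ager, which encodes RAGE, a receptor for advanced glycation products. Diabetic mice had received 5 daily injections of 65 mg/kg streptozotocin, which destroys pancreatic beta cells, at 6 weeks of age, and non-diabetic mice had received citrate buffer. The groups were diabetic ApoE null (4 arrays, replicates 1 to 4), non-diabetic ApoE null (4 arrays, replicates 5 to 8), diabetic ApoE/RAGE null (4 arrays, replicates 9 to 12) and non-diabetic ApoE/RAGE null (3 arrays, replicates 13 to 15, the fourth mouse having given no labelled RNA). A supplier provided the ApoE null mice, whereas the ApoE/RAGE null mice were from a laboratory colony, so RAGE genotype and colony cannot be told apart. P-values reflect the spread between mice as labelled.

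Array medians lay between 4.35 and 4.42 on the log2 scale, and pairwise correlations between arrays between 0.972 and 0.997. All 8 smooth muscle markers were above the array median on all 15 arrays, as were all 7 markers of adventitial fibroblasts. Ager itself does not check the deletion, because whether its probes lie in the deleted stretch is not given in the sources used here. Its brighter probe set read 4.17 to 4.69 on ApoE null arrays and 4.89 to 5.36 on ApoE/RAGE null replicates 11 to 15. Replicates 9 and 10, labelled diabetic ApoE/RAGE null, read 4.63 and 4.48, within the ApoE null range. The dimmer probe set overlapped between the genotypes. Diabetic ApoE/RAGE null replicates 9 and 10 went against their labels at genes on the same chromosome as the deleted Ager gene. Decr2 read 5.19 and 5.10 on these 2 arrays. It read 6.84 to 7.56 on the other 5 arrays labelled ApoE/RAGE null and 5.32 to 6.01 on the ApoE null arrays. The same 2 arrays also sat with the ApoE null arrays at Zfp52, Eme2, Rnf5, Polh and Cyp39a1. Fold changes, and counts at an unadjusted p under 0.05, that rest on the diabetic ApoE/RAGE null group are therefore given with and without them. This holds for the members, the lists of their partners and the genes named, from the probe set used. Marker lists are given without them only where stated. Separate or overlapping groups, intervals and other probe sets are given for all 15 arrays. In whole tissue, fewer cells of a type and less RNA per cell cannot be told apart.

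Integrins are pairs of 1 alpha and 1 beta subunit that span the membrane, bind matrix or counter-receptors outside the cell and connect to actin inside it through talin, kindlin and vinculin. Laminins are three-chain molecules of 1 alpha, 1 beta and 1 gamma chain that polymerise into basement membranes, such as those under the endothelium and around each smooth muscle cell. In the artery, integrins with the beta1 subunit hold smooth muscle to laminin, collagen and fibronectin, those with alphav bind vitronectin and other ligands carrying the RGD motif, and those with beta2 or beta7 belong to blood leukocytes.

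No integrin or laminin gene passed limma's test at an adjusted p under 0.05 in any of the 5 comparisons. Of all 18193 genes, 0% passed for diabetes in either genotype, for RAGE deletion without diabetes and for the interaction, and 0.313% for RAGE deletion in the diabetic aorta. The smallest adjusted p of a member was 0.119, for Itga7 in the last of these. At an unadjusted p under 0.05, 2 members passed for diabetes in ApoE null aorta (13.2% of all genes did) and 1 for RAGE deletion without diabetes (2.62% of all genes). The counts were 6 for diabetes in ApoE/RAGE null aorta (7.71% of all genes), 11 for RAGE deletion in diabetic aorta (17.9% of all genes) and 3 for the interaction, the difference between the effects of diabetes in the 2 genotypes (8.57% of all genes). Without replicates 9 and 10 these last 3 counts were 2, 11 and 3, against 4.24%, 21% and 11% of all genes. All members' differences below are therefore described by their values, and none is called a change. Comparisons that share a group share its arrays, so their values are given side by side and not as separate evidence.

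**Figure D1:**
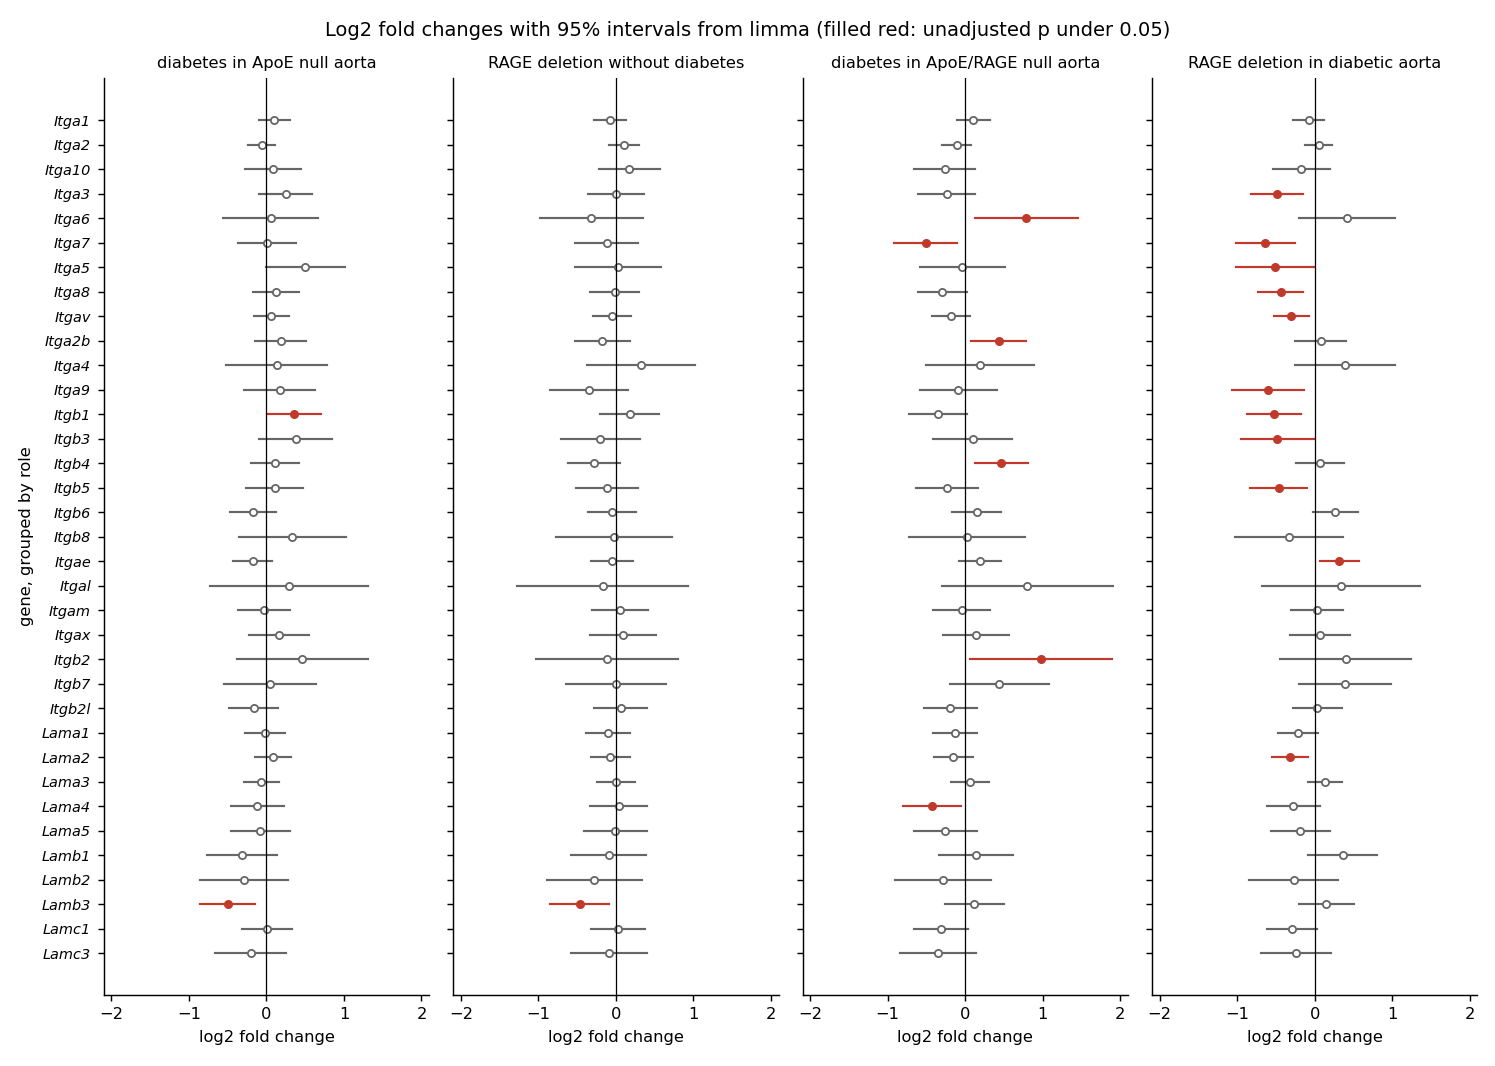
Log2 fold changes of the 35 genes (rows, by role) in 4 comparisons, as points with 95% intervals from limma; filled red points had an unadjusted p under 0.05 and open grey points did not. In the right panel 10 of the 11 red points lie below 0, and 9 of those are integrins that are not restricted to leukocytes.

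Integrin subunits outside the leukocyte families read mostly lower in diabetic ApoE/RAGE null than in diabetic ApoE null aorta. Of 18 such subunits, 12 had a negative fold change (50.6% of all genes did) and 9 (50%) were lower at an unadjusted p under 0.05, among them both subunits of the alpha5beta1, alpha8beta1, alphavbeta5 and alphavbeta3 receptors. None of the 18 was higher at that level, as 6.62% of all genes were. Their median log2 fold change was -0.32, against 0.00 for all genes. Of all genes, 11.3% were lower at this level, and of the genes at or above the median level 16.8%. The groups did not overlap for 5 members that were lower and 1 that was higher, against 5.86% and 1.86% of all genes (7.73% in all). With replicates 9 and 10 left out the same 9 subunits had an unadjusted p under 0.05, with fold changes from -0.34 (Itgav) to -0.68 (Itgb3) and a median of -0.41 over the 18, of which 14 were negative (51.1% of all genes). In that fit 10.4% of all genes were lower at this level. Leaving out diabetic ApoE null replicate 3 brought the number to 5 (Itga3, Itga7, Itga8, Itgav and Itgb1).

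**Figure D2:**
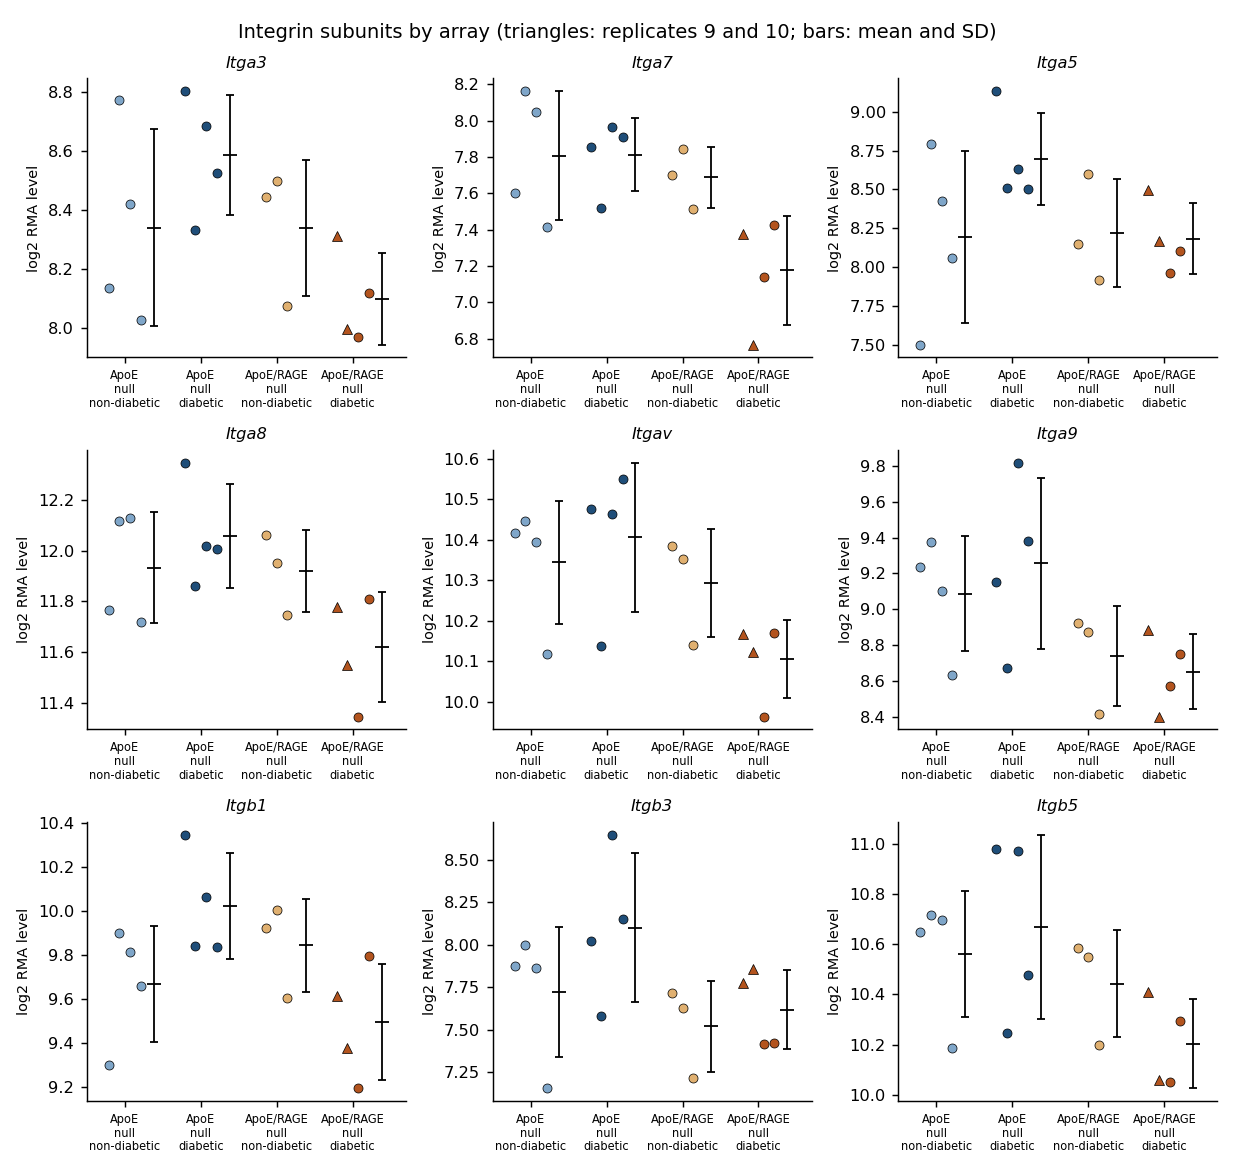
Log2 RMA level on each array (points) of the 9 integrin subunits with a lower level and an unadjusted p under 0.05 for RAGE deletion in diabetic aorta, with group mean and SD (bars) and triangles for replicates 9 and 10. The 2 diabetic groups are separate for Itga3, Itga5, Itga7, Itga8 and Itgb1 and overlap for Itga9, Itgav, Itgb3 and Itgb5.

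Among the laminin-binding alpha subunits, Itga7, the partner of beta1 in the laminin receptor of muscle cells, had the smallest p of all members. In diabetic ApoE null aorta Itga7 read 7.86, 7.52, 7.97 and 7.91, and in diabetic ApoE/RAGE null aorta 7.37, 6.77, 7.14 and 7.42. Without diabetes it read 7.60, 8.16, 8.05 and 7.42 in ApoE null and 7.70, 7.85 and 7.51 in ApoE/RAGE null aorta. The diabetic ApoE/RAGE null arrays were all below the diabetic ApoE null arrays and all below the non-diabetic ApoE/RAGE null arrays, with the lowest value on replicate 10. The group means were 7.18 ± 0.30 against 7.81 ± 0.20 (SD, n = 4 each), a log2 fold change of -0.64 ± 0.18 (SE). In limma's test this had an unadjusted p of 0.00275 and an adjusted p of 0.119, and without replicates 9 and 10 the fold change was -0.53. The effect of diabetes in ApoE/RAGE null aorta was -0.51 ± 0.19 (SE, adjusted p = 0.674), and -0.41 with an unadjusted p of 0.0751 without those 2 arrays. In ApoE null aorta the effect of diabetes was 0.01 ± 0.18 (SE).

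Itga3, the alpha subunit of a receptor for laminins with the alpha5 chain, showed the same order of the diabetic groups. It read 8.80, 8.33, 8.69 and 8.53 in diabetic ApoE null and 8.31, 8.00, 7.97 and 8.12 in diabetic ApoE/RAGE null aorta. The 2 sets were separate by a narrow margin, replicate 9 being closest to the ApoE null arrays. The non-diabetic values were 8.14, 8.78, 8.42 and 8.03 in ApoE null and 8.45, 8.50 and 8.08 in ApoE/RAGE null aorta and spread across both diabetic groups. The log2 fold change for RAGE deletion in diabetic aorta was -0.49 ± 0.16 (SE, adjusted p = 0.17), and -0.54 without replicates 9 and 10. All 3 probe sets of Itga3 read lower, each with an unadjusted p under 0.05.

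Itga6, which pairs with beta1 or beta4 and is also carried by platelets, endothelium and epithelium, went the other way. The diabetic ApoE null arrays read 6.55, 7.54, 7.38 and 7.62 for Itga6, and the diabetic ApoE/RAGE null arrays 7.52, 8.07, 8.18 and 6.998. The non-diabetic arrays read 7.78, 6.80, 6.88 and 7.42 in ApoE null and 6.98, 6.70 and 7.03 in ApoE/RAGE null aorta. Replicates 10 and 11 stood highest of all 15 arrays, and the groups overlapped in each comparison. The effect of diabetes in ApoE/RAGE null aorta was 0.79 ± 0.31 (SE, unadjusted p = 0.0232, adjusted p = 0.674), and 0.69 with an unadjusted p of 0.0931 without replicates 9 and 10. Its partner Itgb4, the beta subunit of hemidesmosomes, read 4.96, 4.91, 5.31 and 4.86 in diabetic and 4.86, 4.29 and 4.48 in non-diabetic ApoE/RAGE null aorta. Itgb4 read 4.91, 5.32, 4.88 and 4.65 with and 4.89, 4.86, 4.86 and 4.70 without diabetes in ApoE null aorta. The ApoE/RAGE null groups of Itgb4 met at replicates 12 and 13, both at 4.86. Its log2 fold change there was 0.46 ± 0.16 (SE, adjusted p = 0.674), and 0.54 with an unadjusted p of 0.0176 without replicates 9 and 10. The airway epithelium marker list, which holds epithelial keratins, averaged 5.42 on replicate 10 and 5.68 on replicate 11 against 3.92 to 4.58 on the other arrays. The keratinocyte and squamous epithelium list averaged 4.76 and 4.99 on these 2 arrays and 4.73 to 5.03 on the others. Itgb4 was highest on replicate 2, where the airway list averaged 4.56. Whether either list accounts for the values of Itga6 and Itgb4 was not tested.

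Of the alpha subunits that recognise the RGD motif, Itga8, Itgav and Itga5 read lower in diabetic ApoE/RAGE null aorta. Itga8, the smooth muscle receptor subunit for nephronectin and fibronectin, read 12.35, 11.86, 12.02 and 12.00 in diabetic ApoE null and 11.78, 11.55, 11.35 and 11.81 in diabetic ApoE/RAGE null aorta. Non-diabetic arrays read 11.77, 12.12, 12.13 and 11.72 in ApoE null and 12.06, 11.95 and 11.74 in ApoE/RAGE null aorta. The diabetic groups did not overlap, and replicate 11 was the lowest array of all. This gave a log2 fold change of -0.44 ± 0.14 (SE, unadjusted p = 0.00628, adjusted p = 0.158), and -0.48 without replicates 9 and 10.

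Itgav encodes the alpha subunit shared by the vitronectin receptors. It read 10.48, 10.14, 10.46 and 10.55 in diabetic ApoE null and 10.17, 10.12, 9.96 and 10.17 in diabetic ApoE/RAGE null aorta. Its non-diabetic values were 10.42, 10.45, 10.39 and 10.12 in ApoE null and 10.38, 10.35 and 10.14 in ApoE/RAGE null aorta. Replicate 2 lay within the range of the diabetic ApoE/RAGE null arrays, so these groups overlapped. For Itgav the log2 fold change was -0.30 ± 0.10 (SE, adjusted p = 0.197), and -0.34 without replicates 9 and 10. The second brightest of its 5 probe sets gave a fold change of 0.02, and the other 3 were negative.

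Itga5 is the alpha subunit of the classical fibronectin receptor. In diabetic ApoE null aorta Itga5 read 9.13, 8.51, 8.63 and 8.51, and in diabetic ApoE/RAGE null aorta 8.50, 8.17, 7.96 and 8.10. The highest array of the second group and the lowest of the first differed by little (8.50 on replicate 9 against 8.51 on replicates 2 and 4). Non-diabetic ApoE null arrays spread more widely (7.50, 8.79, 8.43 and 8.06), and the non-diabetic ApoE/RAGE null arrays read 8.15, 8.60 and 7.91. The log2 fold change for RAGE deletion in diabetic aorta was -0.51 ± 0.24 (SE), with a 95% interval of -1.02 to -0.0027 and an adjusted p of 0.336. It was -0.66 without replicates 9 and 10. That for diabetes in ApoE null aorta was 0.50 ± 0.24 (SE), with an interval of -0.01 to 1.01.

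Itga2b, the alpha subunit of the platelet fibrinogen receptor, read 5.56, 5.58, 5.31 and 5.20 in diabetic and 4.93, 4.81 and 5.19 in non-diabetic ApoE/RAGE null aorta. The groups were separate, with a difference of 0.43 ± 0.17 (SE, adjusted p = 0.674), and 0.28 with an unadjusted p of 0.183 without replicates 9 and 10. In ApoE null aorta the values were 5.01, 5.13, 5.78 and 5.42 with and 5.41, 5.08, 5.06 and 5.07 without diabetes, and these overlapped. The 6 measured platelet markers averaged 4.67 to 5.19 in diabetic and 4.60 to 4.76 in non-diabetic ApoE/RAGE null aorta, and 4.82 to 5.86 on the ApoE null arrays. Their part in the result was not tested.

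Itga9, which with beta1 binds tenascin-C, osteopontin and VCAM-1, had the lowest fold change after Itga7. The diabetic ApoE null arrays read 9.15, 8.67, 9.82 and 9.38 for Itga9, and the diabetic ApoE/RAGE null arrays 8.88, 8.40, 8.57 and 8.75. Replicate 2 and replicate 9 crossed, so the groups overlapped. Without diabetes the values were 9.23, 9.37, 9.10 and 8.64 in ApoE null and 8.92, 8.88 and 8.42 in ApoE/RAGE null aorta. The log2 fold change for RAGE deletion in diabetic aorta was -0.60 ± 0.22 (SE, unadjusted p = 0.0139, adjusted p = 0.209), and -0.60 without replicates 9 and 10. All 3 probe sets of Itga9 read lower with an unadjusted p under 0.05. The second brightest, which is not the one chosen by the rule, gave -1.004 ± 0.19 (SE) with separate groups and passed limma's adjusted test (adjusted p = 0.0482), as 0.244% of all probe sets did.

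Of the 6 beta subunits outside the leukocyte families, Itgb1, Itgb5 and Itgb3 read lower in diabetic ApoE/RAGE null aorta. Itgb1 is the common beta subunit of the collagen, laminin and fibronectin receptors named above. It read 10.35, 9.84, 10.07 and 9.84 in diabetic ApoE null and 9.61, 9.38, 9.20 and 9.80 in diabetic ApoE/RAGE null aorta. Without diabetes it read 9.30, 9.90, 9.81 and 9.66 in ApoE null and 9.92, 10.01 and 9.61 in ApoE/RAGE null aorta. The diabetic groups were separate, and replicate 1 stood highest of all 15 arrays. The log2 fold change for RAGE deletion in diabetic aorta was -0.53 ± 0.16 (SE, unadjusted p = 0.00556, adjusted p = 0.152), the same to 2 decimals without replicates 9 and 10. Diabetes came with a difference of 0.35 ± 0.16 (SE) in ApoE null and of -0.35 ± 0.18 (SE) in ApoE/RAGE null aorta, the latter -0.35 without those 2 arrays. The difference between these effects, the interaction, was -0.70 ± 0.24 (SE, unadjusted p = 0.0103, adjusted p = 0.675), and -0.70 without them. Of 6 probe sets for Itgb1, 4 gave a negative interaction, 3 of them with an unadjusted p under 0.05. The other 2 probe sets averaged 2.15 each over the arrays, below the array medians.

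Itgb5, the beta subunit of a vitronectin receptor with alphav, read 10.98, 10.25, 10.97 and 10.48 in diabetic ApoE null and 10.41, 10.06, 10.05 and 10.29 in diabetic ApoE/RAGE null aorta. Its non-diabetic values were 10.65, 10.72, 10.70 and 10.19 in ApoE null and 10.58, 10.55 and 10.20 in ApoE/RAGE null aorta. Replicate 2 fell among the ApoE/RAGE null values. Its log2 fold change was -0.46 ± 0.17 (SE, adjusted p = 0.223), and -0.50 without replicates 9 and 10. With all arrays all 4 of its probe sets read lower with an unadjusted p under 0.05.

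Itgb3 forms the alphavbeta3 receptor with alphav and the platelet receptor with Itga2b. In diabetic ApoE null aorta Itgb3 read 8.02, 7.58, 8.65 and 8.15, and in diabetic ApoE/RAGE null aorta 7.78, 7.86, 7.42 and 7.42. In non-diabetic arrays it read 7.88, 8.00, 7.86 and 7.16 in ApoE null and 7.72, 7.63 and 7.21 in ApoE/RAGE null aorta. The diabetic groups overlapped at replicate 2, and replicate 3 was the highest of all arrays. RAGE deletion in diabetic aorta came with a log2 fold change of -0.48 ± 0.22 (SE, adjusted p = 0.322), and -0.68 without replicates 9 and 10. The 2 remaining beta subunits of this list, Itgb6 and Itgb8, which pair with alphav to release TGF-beta from its latent form, had fold changes of 0.27 ± 0.14 (SE) and -0.33 ± 0.32 (SE), and their groups overlapped. When replicates 9 and 10 were left out, these were 0.34 and -0.65, with unadjusted p of 0.0514 and 0.12. Itgb6 was below the array median on every array.

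On the probe sets used, the collagen receptor subunits differed less between the groups. Itga1, found on smooth muscle, lay between 7.98 and 8.48 on all 15 arrays, Itga10 between 5.46 and 6.21, and Itga2, the platelet and epithelial collagen receptor, was below the array median throughout. Their fold changes ran from -0.17 to 0.06 for RAGE deletion in diabetic aorta, with no unadjusted p under 0.05 in any of the 5 comparisons. In the fit without replicates 9 and 10 they ran from -0.16 to 0.06, again with no unadjusted p under 0.05 in any comparison. With all arrays both of the 2 probe sets of Itga1 read lower for RAGE deletion in diabetic aorta. The one not used had an unadjusted p under 0.05.

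The promoters of 3 of these genes are shown because Itga5 and Itgb1 together make the fibronectin receptor and all 4 probe sets of Itgb5 read lower, and because their windows lie just before the annotated gene. Each is 250 bases before the RefSeq start (assembly GRCm38.p6), read on the gene's strand: chr15:103366792-103367041 (minus strand), chr8:128685404-128685653 (plus strand) and chr16:33829415-33829664 (plus strand). Capitals mark matches on either strand to the GC box GGGCGG, to the TEAD motif GGAATG, to the AP-1 motif TGANTCA or to the SRF CArG box.
Itga5: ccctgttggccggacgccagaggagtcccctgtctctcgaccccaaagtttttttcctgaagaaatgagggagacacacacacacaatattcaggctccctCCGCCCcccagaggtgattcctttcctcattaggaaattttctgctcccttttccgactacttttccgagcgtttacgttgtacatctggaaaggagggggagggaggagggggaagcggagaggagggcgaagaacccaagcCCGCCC
Itgb1: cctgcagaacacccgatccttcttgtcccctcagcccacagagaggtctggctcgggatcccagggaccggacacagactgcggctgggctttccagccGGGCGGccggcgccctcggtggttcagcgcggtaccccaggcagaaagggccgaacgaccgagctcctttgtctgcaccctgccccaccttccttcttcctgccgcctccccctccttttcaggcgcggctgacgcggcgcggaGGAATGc
Itgb5: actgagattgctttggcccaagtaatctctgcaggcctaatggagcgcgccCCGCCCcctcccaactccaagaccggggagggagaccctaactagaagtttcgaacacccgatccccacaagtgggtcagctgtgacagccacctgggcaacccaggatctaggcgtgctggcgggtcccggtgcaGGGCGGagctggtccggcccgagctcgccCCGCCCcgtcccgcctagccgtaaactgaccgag
The GC box stood in 5 of the 8 windows of the 7 lower integrins that had one, against 32.7% of all 32851 promoter windows of the same length. It stood in 9 of the 26 windows of all members. This motif is made of G and C only. The 8 windows held 50.8% to 68.0% G and C, against a median of 52.4% over all windows. The TEAD motif stood in 1 of 8, the one at the end of the Itgb1 window, against 12.6% of all. AP-1 stood in 0 of 8 (6.75% of all), the SRF CArG box in 0 of 8 (1.47% of all) and the TATA box TATAAA in 0 of 8 (12.4% of all). The PU.1 motif GAGGAA, not capitalised, stood in 4 of 8 (23.3% of all), and in 13 of the 26 windows of all members. The PU.1 and TEAD motifs share the letters GGAA, so their matches can overlap. A match is a run of letters and not a measured binding site.

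Leukocyte integrins were set apart by 1 array. Itgal and Itgb2 together form LFA-1, the lymphocyte receptor for the ICAM counter-receptors, and Itgax and Itgam pair with Itgb2 on dendritic cells and macrophages. Itgb7 pairs with Itga4 or Itgae on lymphocytes that home to mucosa. Diabetic ApoE/RAGE null replicate 10 was the highest of all 15 arrays for 5 of the 7 leukocyte integrins and also for Itga4. For Itgal it read 6.61 where the other 14 arrays lay between 3.51 and 4.71, and for Itgb2 7.64 where they lay between 4.74 and 6.10. Itgb7 read 6.48 there against 4.68 to 5.29 elsewhere, Itgax 5.13 against 4.03 to 4.59, and Itga4 8.09 against 6.08 to 6.64.

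**Figure D3:**
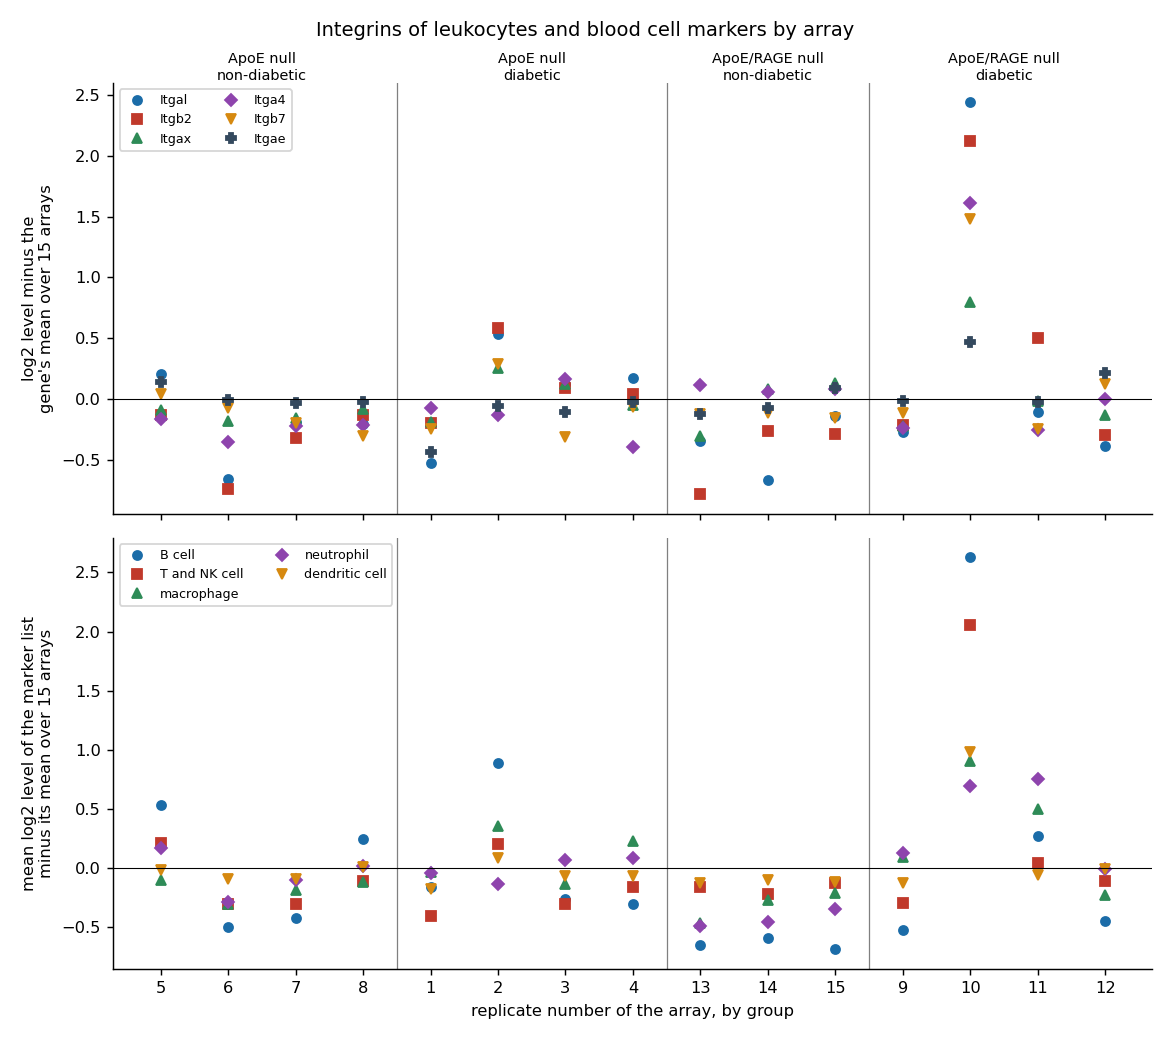
Top, log2 level of 6 integrins carried by leukocytes on each array, minus the gene's mean over 15 arrays; bottom, the mean log2 level of 5 blood cell marker lists on the same arrays, minus the list's mean. Replicate 10 is the highest array for all 6 genes and for the B cell, T and NK cell, macrophage and dendritic cell lists.

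The blood cell marker lists moved with this array. The 6 measured B cell markers averaged 6.57 on replicate 10 and 3.25 to 4.83 on the others, and the 9 T and NK cell markers 6.13 against 3.67 to 4.29. Macrophage markers averaged 8.31 on replicate 10 and 7.90 on replicate 11, against at most 7.76 on the rest. The B cell gene Pax5 was below the array median on all 15 arrays, while Ms4a1, another B cell gene, reached 8.51 on its highest array. The part of these cells in the integrin values was not tested beyond leaving the array out.

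All 7 leukocyte integrins had a positive fold change for RAGE deletion in diabetic aorta (49.4% of all genes did), with a median of 0.32. After removal of replicates 9 and 10 the median was 0.02 and 3 of the 7 were negative, Itgal (-0.32), Itgax (-0.11) and Itgb2 (-0.02), where 48.9% of all genes were positive. The same 3 were negative without replicate 10 alone, with a median of 0.0054. With all arrays only Itgae, the partner of beta7 on intraepithelial lymphocytes, had an unadjusted p under 0.05. It read 3.18, 3.57, 3.51 and 3.60 in diabetic ApoE null and 3.60, 4.09, 3.60 and 3.83 in diabetic ApoE/RAGE null aorta, and 3.77, 3.61, 3.59 and 3.60 and 3.50, 3.55 and 3.72 in the respective non-diabetic groups. The diabetic groups were separate only at the third decimal, and all values were below the array medians. The log2 fold change was 0.32 ± 0.12 (SE, adjusted p = 0.224), and 0.25 with an unadjusted p of 0.0647 without replicates 9 and 10. Itgae also had an unadjusted p of about 0.05 for the interaction, at 0.37 ± 0.17 (SE), and 0.30 with an unadjusted p of 0.0897 without those arrays.

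Itgb2 is the beta subunit common to the leukocyte receptors. In ApoE/RAGE null aorta it read 5.31, 7.64, 6.02 and 5.23 with and 4.74, 5.26 and 5.23 without diabetes. ApoE null arrays read 5.32, 6.10, 5.61 and 5.56 with and 5.38, 4.78, 5.20 and 5.38 without diabetes. Replicate 10 stood far above every other array, and the groups overlapped in both genotypes. The effect of diabetes was 0.98 ± 0.43 (SE, adjusted p = 0.681) in ApoE/RAGE null and 0.46 ± 0.40 (SE, adjusted p = 0.719) in ApoE null aorta. Without replicates 9 and 10 the first of these was 0.55, with an unadjusted p of 0.0628. The second kept its size, and with the smaller shared estimate of spread it was 0.46 ± 0.21 (SE) with an unadjusted p of 0.0466 and an adjusted p of 0.39. Itgam and Itgb2l had no unadjusted p under 0.05 in any comparison, and Itgam stayed below the array median on all arrays.

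Itga4, the alpha subunit that with beta1 binds VCAM-1, is given for the comparison without diabetes because its values had been seen. It read 6.59, 6.54 and 6.56 in ApoE/RAGE null and 6.31, 6.12, 6.26 and 6.27 in ApoE null aorta. It was the 1 member of 35 with separate groups in this comparison, where 4.87% of all genes had them. With all arrays the difference was 0.32 ± 0.33 (SE, unadjusted p = 0.337). The shared estimate of spread includes replicate 10, and without replicates 9 and 10 the same difference had an unadjusted p of 0.0154. Of its 5 probe sets, 4 gave a positive difference, and none had an unadjusted p under 0.05 with all arrays.

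**Figure D4:**
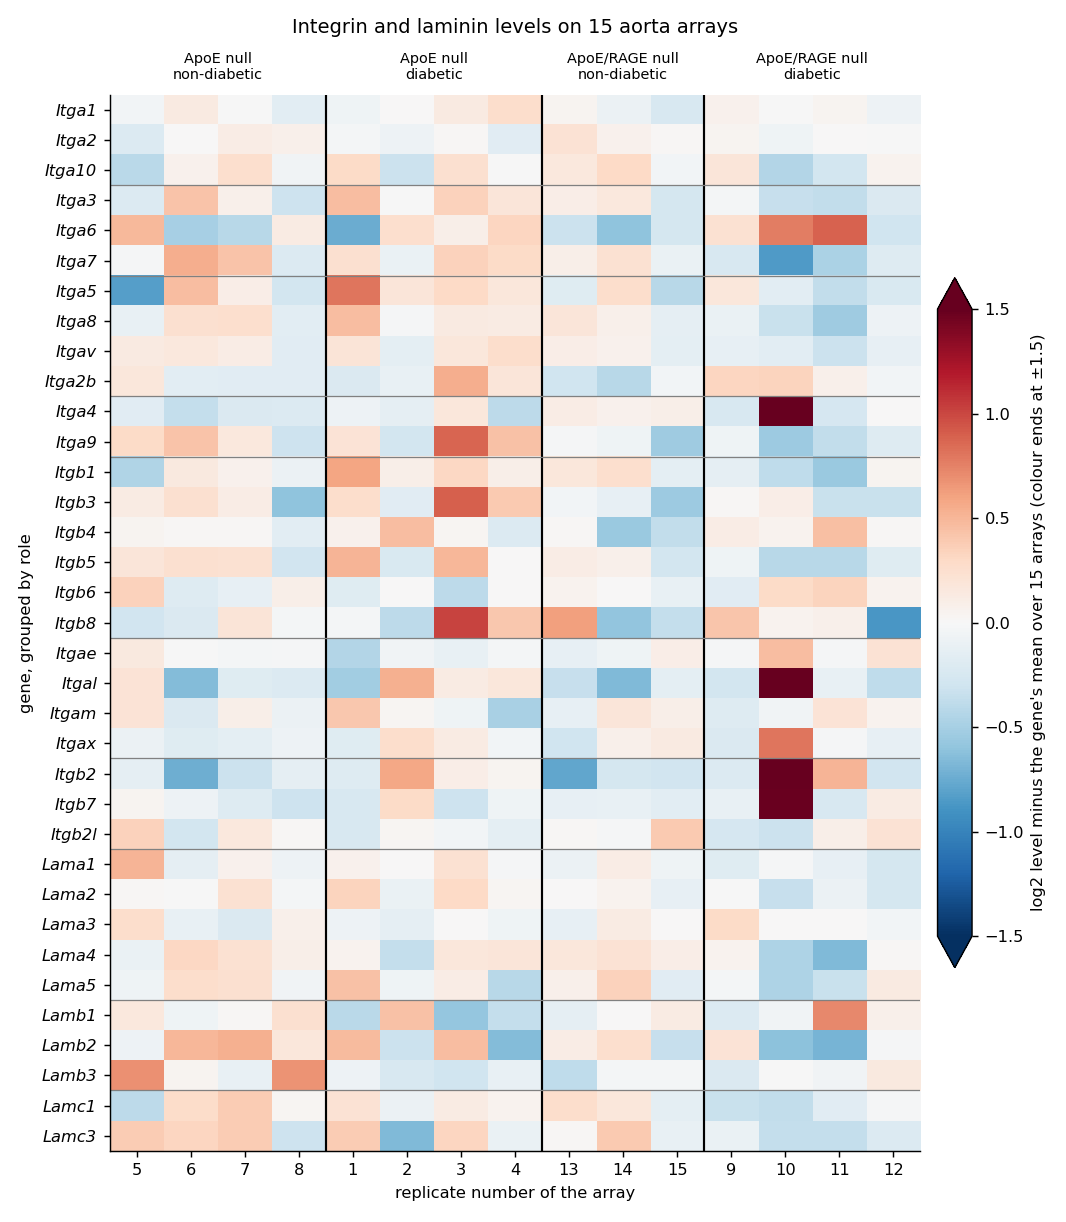
Log2 level of each of the 35 genes (rows, by role) on each of the 15 arrays (columns, by group), minus the gene's mean over the arrays, with the colour scale ending at ±1.5. Replicate 10 stands out in red for Itga4, Itgal, Itgb2 and Itgb7, and the diabetic ApoE/RAGE null columns are mostly blue for Itga3, Itga7, Itga8, Itga9, Itgb1 and Itgb5.

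Laminin chains had overlapping levels in the 2 diabetic groups. Of 10 chains, 7 had a negative fold change for RAGE deletion in diabetic aorta (50.6% of all genes did), with a median of -0.23. An unadjusted p under 0.05 was reached by 1 of the 10, against 17.9% of all genes. With replicates 9 and 10 left out, 7 were again negative, with a median of -0.22, and 1 was lower and 1 higher at that level (10.4% and 10.6% of all genes). The lower chain in both, Lama2, is the alpha chain of the laminin of muscle basement membranes. The diabetic ApoE null arrays read 8.45, 8.01, 8.41 and 8.14 for Lama2, and the diabetic ApoE/RAGE null arrays 8.10, 7.77, 8.03 and 7.84. Non-diabetic arrays read 8.13, 8.11, 8.35 and 8.08 in ApoE null and 8.12, 8.16 and 8.00 in ApoE/RAGE null aorta. The diabetic groups overlapped, and replicate 10 was the lowest of all arrays. Lama2 had a log2 fold change of -0.32 ± 0.11 (SE, unadjusted p = 0.0116, adjusted p = 0.194), and -0.32 without replicates 9 and 10.

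Lama4, the alpha chain of the laminin of endothelial and smooth muscle basement membranes, read lower with diabetes in ApoE/RAGE null aorta. There it read 9.21, 8.69, 8.50 and 9.17 with and 9.33, 9.38 and 9.26 without diabetes. ApoE null arrays read 9.21, 8.80, 9.33 and 9.34 with and 9.06, 9.47, 9.38 and 9.24 without diabetes. The ApoE/RAGE null groups did not overlap, and replicates 10 and 11 were the lowest of all arrays. The difference was -0.43 ± 0.17 on the log2 scale (SE, unadjusted p = 0.0267, adjusted p = 0.674), and -0.49 without replicates 9 and 10. With each array left out in turn, its unadjusted p was 0.05 or more 4 times, and at most 0.0926 (without replicate 11). Lama4, Itga7 and Itga2b were the 3 members of 35 with separate groups in this comparison (6.68% of all genes). Of these, 2 were lower and 1 higher (4.3% and 2.39% of all genes).

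Lama5 and Lamc1, which together with a beta chain make the laminin that alpha3beta1 binds, had fold changes of -0.19 ± 0.18 (SE) and -0.30 ± 0.15 (SE) for RAGE deletion in diabetic aorta. Lamb2 had -0.27 ± 0.27 (SE), while Lamb1, the other main beta chain, had 0.36 ± 0.21 (SE). With all arrays these 4 had overlapping groups and no unadjusted p under 0.05. When replicates 9 and 10 were left out, Lamb1 had 0.62 with an unadjusted p of 0.0218, and an interaction of 0.71 with an unadjusted p of 0.0432, against 0.45 ± 0.31 (SE) with all arrays. The other 3 then had -0.11 (Lama5), -0.17 (Lamc1) and -0.35 (Lamb2). Lamb1 was highest on replicates 11 and 2 and lowest on replicates 3 and 1, and Lamb2 was lowest on replicate 11. Lamc3 had -0.24 ± 0.21 (SE), and -0.26 without replicates 9 and 10.

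**Figure D5:**
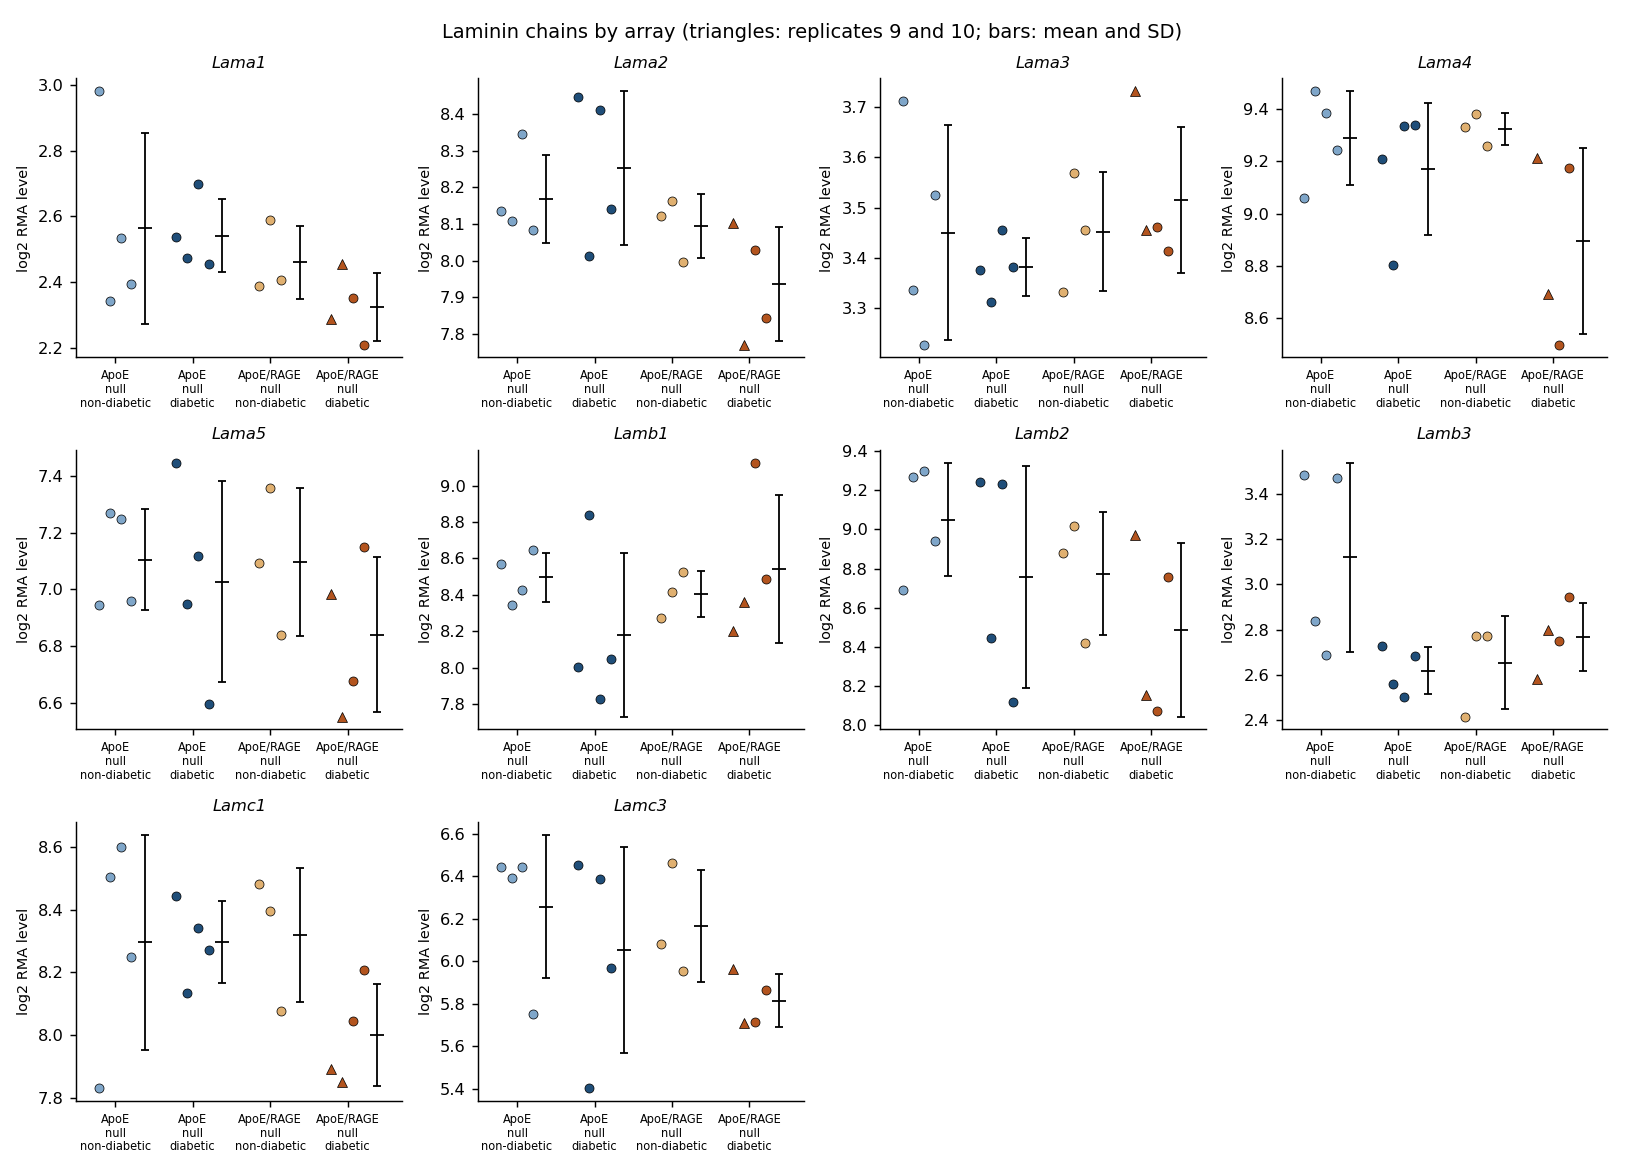
Log2 RMA level on each array (points) of the 10 laminin chains by group, with group mean and SD (bars) and triangles for replicates 9 and 10. The groups overlap for every chain in the comparison of the 2 diabetic groups, and non-diabetic ApoE null replicates 5 and 8 stand above the rest for Lamb3.

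Lamb3, a chain of the epithelial laminin that anchors skin, was below the array median on all 15 arrays, as were Lama1 and Lama3. It read 3.48, 2.84, 2.69 and 3.47 in non-diabetic and 2.73, 2.56, 2.50 and 2.68 in diabetic ApoE null aorta, and 2.42, 2.77 and 2.77 and 2.58, 2.80, 2.75 and 2.94 in non-diabetic and diabetic ApoE/RAGE null aorta. Replicates 5 and 8 were the highest of all arrays and raised the group mean. The differences were -0.50 ± 0.16 (SE, adjusted p = 0.355) for diabetes in ApoE null aorta and -0.47 ± 0.18 (SE, adjusted p = 1) for RAGE deletion without diabetes. The interaction was 0.62 ± 0.24 (SE, adjusted p = 0.675), and 0.70 without replicates 9 and 10.

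The effect of diabetes within ApoE null aorta was small for the whole set. The 35 members had a median log2 fold change of 0.06 against 0.00 for all genes, and no member's groups were separate (7.62% of all genes had separate groups). Of the 18 integrins outside the leukocyte families, 16 had a positive fold change (49.8% of all genes did). On the probe sets used, Itgb1 alone of these had an unadjusted p under 0.05 (0.35 ± 0.16, SE, adjusted p = 0.464). In the fit without replicates 9 and 10 its unadjusted p was 0.0566. Itga5 and Itga9 each had 1 probe set not used that was higher at this level with all arrays. Of the laminins, 8 of 10 had a negative fold change (50.2% of all genes). With diabetes in ApoE/RAGE null aorta, 10 of the 18 integrins were negative (55.8% of all genes), with a median of -0.06, and the median of the 35 members was -0.05. In the fit without replicates 9 and 10, 13 of the 18 were negative (51.6% of all genes), with a median of -0.20, and the 35 members' median was -0.11. Separate groups there were counted in 6.68% of all genes. For RAGE deletion without diabetes, 22 of the 35 members were negative (49.4% of all genes), with a median of -0.05, and the largest was -0.47 for Lamb3.

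The partners of integrins and laminins were taken from 4 lists. Of 22 genes for other basement membrane components, 20 had a negative fold change for RAGE deletion in diabetic aorta with all arrays (50.6% of all genes did). At an unadjusted p under 0.05, 12 were lower (11.3% of all genes) and 0 higher (6.62%), with a median of -0.30. After removal of replicates 9 and 10 the numbers were 4 lower (10.4% of all genes) and 1 higher (10.6%), with a median of -0.26. Smoc2, a calcium-binding matrix protein, had -0.44 ± 0.10 (SE, adjusted p = 0.076), and -0.47 without replicates 9 and 10. It read 9.37, 9.13, 9.31 and 9.19 in diabetic ApoE null and 8.96, 8.72, 8.94 and 8.61 in diabetic ApoE/RAGE null aorta, with no overlap. Col15a1, a collagen at the outer face of basement membranes, had -0.66, and the type IV collagen chains Col4a3 and Col4a6 had -0.48 and -0.58. Without replicates 9 and 10 these 3 had -0.45, -0.41 and -0.51, each with an unadjusted p above 0.05. With diabetes in ApoE/RAGE null aorta 7 of the 22 were lower (3.97% of all genes) and 0 higher (3.74%), Col15a1 (-0.64) and Sparc (-0.39) having the smallest p. With replicates 9 and 10 left out none of the 22 was lower or higher at that level (1.81% and 2.43% of all genes), and the fold changes were -0.44 for Col15a1 and -0.25 for Sparc. With diabetes in ApoE null aorta 1 was higher (7.27% of all genes), Smoc2 (0.30), and 0 were lower (5.94% of all genes).

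Laminin also has receptors that are not integrins, the dystroglycan complex and the syndecans. Of 11 such genes measured of 12 listed, 4 were lower (11.3% of all genes) and 0 higher (6.62%) for RAGE deletion in diabetic aorta, with a median of -0.25. When replicates 9 and 10 were left out, 3 were lower (10.4%) and 0 higher (10.6%), with a median of -0.30. Sgcb, a sarcoglycan of the dystrophin complex, had -0.44 ± 0.12 (SE, adjusted p = 0.122), and Dag1, which encodes dystroglycan itself, had -0.34 ± 0.11 (SE, adjusted p = 0.166). Sdc2 and Sspn had -0.36 and -0.31. Leaving out replicates 9 and 10 gave -0.43 for Sgcb, -0.16 for Dag1, -0.42 for Sdc2 and -0.30 for Sspn, those of Dag1 and Sspn with an unadjusted p above 0.05. Without diabetes, Sdc1 had -0.52 ± 0.19 (SE, adjusted p = 1).

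Of 23 other integrin ligands measured of 27 listed, 8 were lower (11.3% of all genes) and 1 higher (6.62%) for RAGE deletion in diabetic aorta, with a median of -0.12. In the fit without replicates 9 and 10, 7 were lower (10.4%) and 1 higher (10.6%), with a median of -0.24. Thbs1, thrombospondin-1, a ligand of alphavbeta3 and of other receptors, read 5.77, 6.23, 6.11 and 6.33 in diabetic ApoE null and 4.70, 5.10, 5.22 and 4.73 in diabetic ApoE/RAGE null aorta. Every diabetic ApoE null array was above every diabetic ApoE/RAGE null array, with a log2 fold change of -1.17 ± 0.24 (SE, adjusted p = 0.0594), and -1.13 without replicates 9 and 10. Its non-diabetic values were 4.08, 5.20, 5.24 and 4.63 in ApoE null and 5.36, 4.66 and 5.32 in ApoE/RAGE null aorta, and the effect of diabetes in ApoE null aorta was 1.32 ± 0.24 (SE, adjusted p = 0.222). The interaction was -1.49 ± 0.35 (SE, adjusted p = 0.675), and -1.46 without them. Fbln5, an elastic fibre protein with an RGD motif, had -0.69 for RAGE deletion in diabetic aorta. Npnt, the nephronectin that alpha8beta1 binds, had -0.67, and Postn, periostin, -0.50. After removal of replicates 9 and 10 these 3 had -0.64, -0.62 and -0.47. The 1 higher ligand was Cdh1, the E-cadherin that Itgae with beta7 binds (1.85, and 1.29 without replicates 9 and 10), named after its value was seen and also one of the airway epithelium markers. With diabetes 4 ligands were higher (7.27% of all genes) and 0 lower (5.94%) in ApoE null aorta, and 4 were higher (3.74%) and 2 lower (3.97%) in ApoE/RAGE null aorta. Without replicates 9 and 10 the latter were 2 higher (2.43%) and 1 lower (1.81%). Among the higher ones were counter-receptors of leukocyte integrins, Vcam1 at 0.74 ± 0.31 (SE, adjusted p = 0.432) in ApoE null and Icam1 at 0.86 ± 0.29 (SE, adjusted p = 0.674) in ApoE/RAGE null aorta. Icam1 had 0.39 with an unadjusted p of 0.184 without replicates 9 and 10.

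The adhesion complex that joins integrins to actin was measured by 36 of 41 listed genes. For RAGE deletion in diabetic aorta 14 were lower (11.3% of all genes) and 0 higher (6.62%), with a median of -0.18. With replicates 9 and 10 left out the numbers were 10 (10.4%) and 1 (10.6%), with a median of -0.23. Vcl, vinculin, read 11.27, 10.93, 11.41 and 11.18 in diabetic ApoE null and 10.70, 10.41, 10.47 and 10.72 in diabetic ApoE/RAGE null aorta. These groups were separate, and the log2 fold change was -0.62 ± 0.15 (SE, adjusted p = 0.0828), and -0.60 without replicates 9 and 10. The actin crosslinker Flnc had -0.57, the scaffold Bcar1 -0.39 and Zyx, zyxin, -0.50, which became -0.62, -0.42 and -0.59 without those arrays. In ApoE null aorta 3 of these genes were higher with diabetes (7.27% of all genes) and 0 lower (5.94%), Crk (0.32), Vasp (0.50) and Bcar1 (0.26). With diabetes in ApoE/RAGE null aorta 3 were higher (3.74%) and 2 lower (3.97%), and without replicates 9 and 10 the numbers were 1 (2.43%) and 0 (1.81%). The largest with all arrays was Fermt3, the kindlin of blood cells (1.14 ± 0.44, SE), which was highest on replicate 10 and had 0.57 with an unadjusted p of 0.128 without those arrays.

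Marker lists of other tissues were compared between the 2 diabetic groups, and some read higher where the integrins read lower. The 11 skeletal muscle markers averaged 7.50 to 9.18 in diabetic ApoE/RAGE null and 4.93 to 8.10 in diabetic ApoE null aorta, and 3.98 to 7.71 in the non-diabetic groups. All 11 had positive fold changes for RAGE deletion in diabetic aorta (49.4% of all genes did), also without replicates 9 and 10 (48.9% of all genes). The 8 smooth muscle markers averaged 10.69 to 11.09 in diabetic ApoE/RAGE null and 10.90 to 11.33 in diabetic ApoE null aorta. Of these, 7 had negative fold changes (50.6% of all genes did), with a median of -0.21. An unadjusted p under 0.05 was reached by 3 (17.9% of all genes). When replicates 9 and 10 were left out, 7 were again negative (51.1% of all genes), with a median of -0.27. At that level 2 were lower (10.4% of all genes). Adventitial fibroblast markers averaged 10.34 to 10.81 and 10.61 to 10.92 in the same groups, and endothelial markers 6.91 to 7.46 and 6.69 to 7.37. Brown adipocyte markers averaged 9.39 to 10.50 and 8.89 to 10.22 there, and white adipocyte markers 8.17 to 9.14 and 7.91 to 8.64. Without replicates 9 and 10, 5 of the 7 brown adipocyte markers were higher at an unadjusted p under 0.05 (10.6% of all genes). None was lower (10.4%), and their median log2 fold change was 1.12. Without replicate 10 alone the median was 0.89 and 2 of the 7 were negative. With all arrays Dio2 and Ppargc1a averaged 8.90 and 7.93 in diabetic ApoE/RAGE null and 9.18 and 8.14 in diabetic ApoE null aorta. The other brown adipocyte markers averaged higher in diabetic ApoE/RAGE null aorta. The part of the tissue's make-up in the lower integrin levels was not tested.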

How the data were processed

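RNA from 15 aortas was measured on 1 Affymetrix array each. The submitters' processing notes name RMA, with which the authors computed the deposited log2 levels; its version is not given in the sources used here. No further normalization was applied. Arrays have no read depth, and their number limits the precision. Of 45101 probe sets, 64 controls were left out and 45037 tested. Gene names came from the array annotation, and all 35 members matched a RefSeq gene table (GRCm38.p6) by Entrez ID. The groups follow the labels.

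Each of the 4 groups was given a mean in 1 limma model of all 15 arrays (limma 3.58.1, R 4.3.3), with empirical Bayes variances. P-values were adjusted over the whole array by the Benjamini-Hochberg method, at a threshold of 0.05. The script was tested on simulated data. Fold changes are differences of log2 means, given with limma's standard error. Lists were described by counts and medians. Counts at an unadjusted p under 0.05 were added after no member had passed the adjusted test.

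Members with an unadjusted p under 0.05 in a comparison are given array by array, with Itga4 added after its values were seen, and of each list the 4 genes with the smallest p in a comparison were eligible. The members and lists were chosen with earlier results of these data known. Promoter sequences are RefSeq's. Alternatives were the compared groups alone, quantile normalization, a trended robust variance, median centring, array weights, no dim probe sets, no probe sets with shared probes, adjustment over genes, B above 0 as the call, the second brightest probe set, each array left out, and replicates 9 and 10 left out. Figures used matplotlib 3.10.9 in Python 3.11.15.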

Additional observations from a re-analysis of the deposited data

Results flagged for a closer look

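In 10 of 105 groups of 4 arrays, 1 array lay apart from the other 3, by a gap above Dixon's 95% critical value, as a share of the group's whole range. Chance gives this in about 5% of groups.

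Non-diabetic ApoE null replicate 8 was the low array 5 times. It read 10.12 for Itgav (the other 3 arrays 10.39 to 10.45), 7.16 for Itgb3 (7.86 to 8.00) and 10.19 for Itgb5 (10.65 to 10.72). It also read 4.70 for Itgb4 (4.86 to 4.89) and 5.75 for Lamc3 (6.39 to 6.44). Replicate 5 of the same group was the high array for Itga2b, at 5.41 (5.06 to 5.08), and for Itgae, at 3.77 (3.59 to 3.61).

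Diabetic ApoE/RAGE null replicate 10 was the high array for Itga4, at 8.09 (6.22 to 6.48), and for Itgal, at 6.61 (3.79 to 4.07), the array on which the B and T cell markers were also highest. Replicate 9 of that group was the high array for Lama3, at 3.73 (3.41 to 3.46), a gene below the array median on every array.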

How the results depend on the processing

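No paired analysis was possible because no replicate number (1 to 15) occurs in more than 1 group. With each array left out in turn, 0 members passed the adjusted test in each comparison. At an unadjusted p under 0.05 the counts then ran from 7 to 15 for RAGE deletion in diabetic aorta (lowest without diabetic ApoE null replicate 1 or 3), 0 to 9 for diabetes in ApoE/RAGE null aorta (0 without non-diabetic replicate 14, 1 without replicate 10), 1 to 4 for diabetes in ApoE null aorta, 0 to 2 for RAGE deletion without diabetes and 1 to 9 for the interaction. The lower integrins outside the leukocyte families numbered 5 to 9. Without replicates 9 and 10 together, 2 members had an unadjusted p under 0.05 for RAGE deletion without diabetes and 2 for diabetes in ApoE/RAGE null aorta (Itgb4 and Lama4). With dim probe sets left out, 25 members were left, and the counts were 1 for diabetes in ApoE null aorta, 0 for RAGE deletion without diabetes and 1 for the interaction. Without probe sets that may share probes, 32 members were left, and the counts were 1 for diabetes in ApoE null aorta and 0 for RAGE deletion without diabetes. With array weights the count for diabetes in ApoE null aorta was 1. With the second brightest probe set 1 member passed the adjusted test for RAGE deletion in diabetic aorta, Itga9 (-1.004, adjusted p = 0.0482), and Itgav was reversed, at 0.022 in place of -0.30. The causes were not tested. Of 575 alternative values of 23 member fold changes, 573 kept their direction and their side of the adjusted threshold, and 92 had an unadjusted p of 0.05 or more. None of the 23 had passed the adjusted test, so keeping their side means only that they still did not pass. Leaving out 1 array in turn gave 345 of the 575 values. Quantile normalization and median centring turned the sign of members only where the fold change was at most 0.03 in size.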

Other observations

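Probe sets not chosen by the rule gave a further view of the lower integrins. The second probe set of Itga8 gave a log2 fold change of -1.18 ± 0.36 (SE) for RAGE deletion in diabetic aorta, against -0.44 for the one used, with an adjusted p of 0.151 in limma's test and overlapping groups. For Itga9 the values were -1.004 and -0.72 against -0.60, and for Itga5 -0.43, -0.58 and -0.19 against -0.51. The 4 probe sets of Itgb5 lay close together, from -0.58 to -0.38. For Itgb1 they ran from -0.53 to 0.17, the 2 positive ones being the dimmest.

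With 4 arrays or fewer a group, intervals were wide: that of Itgb8 in the same comparison ran from -1.03 to 0.36, and that of Itgal from -0.68 to 1.36 on the log2 scale. Itga2, Itgae, Itgam, Itgb6, Lama1, Lama3 and Lamb3 were below the array median on every array, where background is a larger share of the signal. Genotype and colony, and tissue make-up and RNA per cell, cannot be told apart.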
